A study of Xenopus laevis with 12 samples.

Results

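The genes described here are the Wnt ligands, the proteins that release them, their receptors, their secreted and membrane antagonists, and the cytoplasmic, nuclear and planar polarity proteins of the pathway on an Affymetrix *Xenopus laevis* array. Members were taken by gene symbol, with a rule that uses no measured value. The rule found 92 probe sets out of 15491 that were tested, and these carry 75 gene symbols of the 7531 on the array. *X. laevis* keeps 2 copies of many genes (L and S). Joining the copies gave 63 genes, of which 12 had probe sets to both copies. Only *ctnnbl1* (2 probe sets) came in by its letters without being a pathway gene.

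Wnt proteins are secreted, lipid-modified ligands that bind Frizzled receptors together with a coreceptor. In the canonical branch, binding of a ligand to Frizzled and an LRP coreceptor stops a complex of Axin, APC and GSK3 from destroying β-catenin, which then joins TCF/LEF proteins on DNA in place of Groucho/TLE corepressors. Other branches, among them planar cell polarity, pass from Frizzled through Dishevelled to the cytoskeleton and steer the cell movements that lengthen the axis. In vertebrate embryos canonical Wnt signals from posterior and lateral tissue posteriorise the neural plate, and secreted antagonists from the anterior midline and the anterior neural plate protect the forebrain and the eye field.

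The samples were tissues of stage 15 embryos, the neurula in which the eye field is a single domain at the front of the neural plate. They were eye primordia (EF, the eye field with the mesendoderm beneath it), posterior neural plate (PNP), lateral endoderm (LE, cut from the flank) and intact whole embryos, with 3 arrays for each of the 4 groups. The pieces on each array were pooled and the 3 arrays of a tissue came from different days and females. Arrays of pluripotent cells given eye field transcription factors or YFP were not analysed here. Whole embryos contain the dissected tissues as well, and in pooled pieces fewer cells of a type cannot be told apart from less RNA per cell.

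Tissue markers matched the label of EF, the posterior position of PNP, and less so the label of LE. The posterior markers do not single out neural plate. The study assigns *tbxt* and *gdf3* to mesoderm, *cdx1* and *cdx4* to all germ layers, and *hoxc6* to neuroectoderm. All 6 eye field markers were higher in EF than in the intact embryo, and all 5 posterior markers were higher in PNP. Of the eye field markers, *rax*, *pax6*, *six3*, *lhx2* and *otx2* are on a list the study made partly by enrichment in these EF samples. The study also displayed all 5 posterior markers from these arrays as known markers, with *tbxt* as *Xbra* and *gdf3* as *derriere*. It likewise displayed the endoderm genes *gata5*, *gata6* and *sox17b*. For these genes the match to the labels is therefore not independent evidence. Of 5 endoderm markers 1 (*gata5*) was higher in LE than in whole embryos. The summed signal of the 5 was 447.3 to 540.5 in LE and 356.8 to 442.3 in whole embryos. In EF it was 40.0 to 53.0 and in PNP 38.9 to 63.1. The summed signal of 5 epidermal markers was as high in LE (4348.1 to 5306.4) as in whole embryos (4018.6 to 4540.7). The epidermal sum was 341.3 to 480.8 in EF and 27.8 to 38.1 in PNP. The PNP pieces also carried summed signals of 5 notochord and organizer genes (483.5 to 561.6 against 71.8 to 85.2 in whole embryos) and of 5 somite genes (1676.2 to 1853.3 against 663.3 to 758.4). In EF the notochord and organizer sum was 70.5 to 160.1, with *gsc*, a marker of the prechordal plate, 1.55 higher on the log2 scale than in whole embryos. The summed signal of 4 neural crest markers was 125.9 to 167.2 in EF against 73.3 to 112.2 in whole embryos, with 2 of them called higher. The sum of 2 cement gland markers was 384.8 to 513.7 in EF and 462.0 to 664.5 in whole embryos. In PNP the cement gland sum was 13.2 to 15.4. The share of these tissues in the Wnt results below was not tested.

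Values are log2 of the normalised array signal. A probe set was taken as above background on an array where it passed the brightest bacterial control probe set of that array (log2 2.1 to 2.77). By this measure 44 of the 92 members were above background on all 12 arrays, and 33 of these 44 differed in at least 1 of the 6 comparisons between tissues. Among the 48 dimmer members 17 did. Differences were tested with limma across all 15491 probe sets, and a member was called at a Benjamini-Hochberg adjusted p under 0.05. In all, 50 members were called in at least 1 comparison and 42 in none. The share of all probe sets called in any comparison is not given here, so these counts have no baseline. Shares for each single comparison are given below.

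Members differed in both directions between the EF and PNP pieces, which also held tissue other than neural plate. Between EF and PNP, 14 of the 92 members (15.22%) were higher in EF, where 13.8% of all probe sets were. Another 18 (19.57%) were higher in PNP, with 9.73% of all probe sets lower in EF. The EF side held *fzd8*, *fzd3*, *sfrp2*, *shisa1.1*, *dkk1* and *wnt8b*, and the PNP side held *wnt11b*, *wnt5a*, *sfrp1*, *sp5l* and *prickle1*. The median difference, EF minus PNP, was -0.05 over the members and 0.01 over all probe sets.

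Percentages in brackets here are shares of all probe sets. Against whole embryos, 14 members were higher in EF (8.83% of all probe sets were) and 11 were lower (10.6%). The first count was 8 without whole-embryo replicate 1. In PNP 18 were higher (10.2%) and 10 lower (12.1%), a split that became 28 and 7 when every array was centred on its median. In LE none was higher (3.23% of all probe sets were) and 8 were lower (5.40%). The count of 0 came from limma after adjustment, with 7 members higher in LE at an unadjusted p under 0.05, and an unpaired t-test, which a table legend of the study names for another comparison of these tissues, also gave 0 after adjustment and 5 before it. Centring on the median gave 2 higher and 8 lower, and leaving out PNP replicate 3 gave 1 higher. The split between EF and LE was 17 higher in EF (14.1%) and 11 lower (10.7%), and that between PNP and LE was 20 higher in PNP (13.0%) and 8 lower (12.6%). Median differences from whole embryos were 0.10, 0.13 and -0.02 for EF, PNP and LE over the members, beside 0.10, 0.07 and 0.04 over all probe sets.

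**Figure D1:**
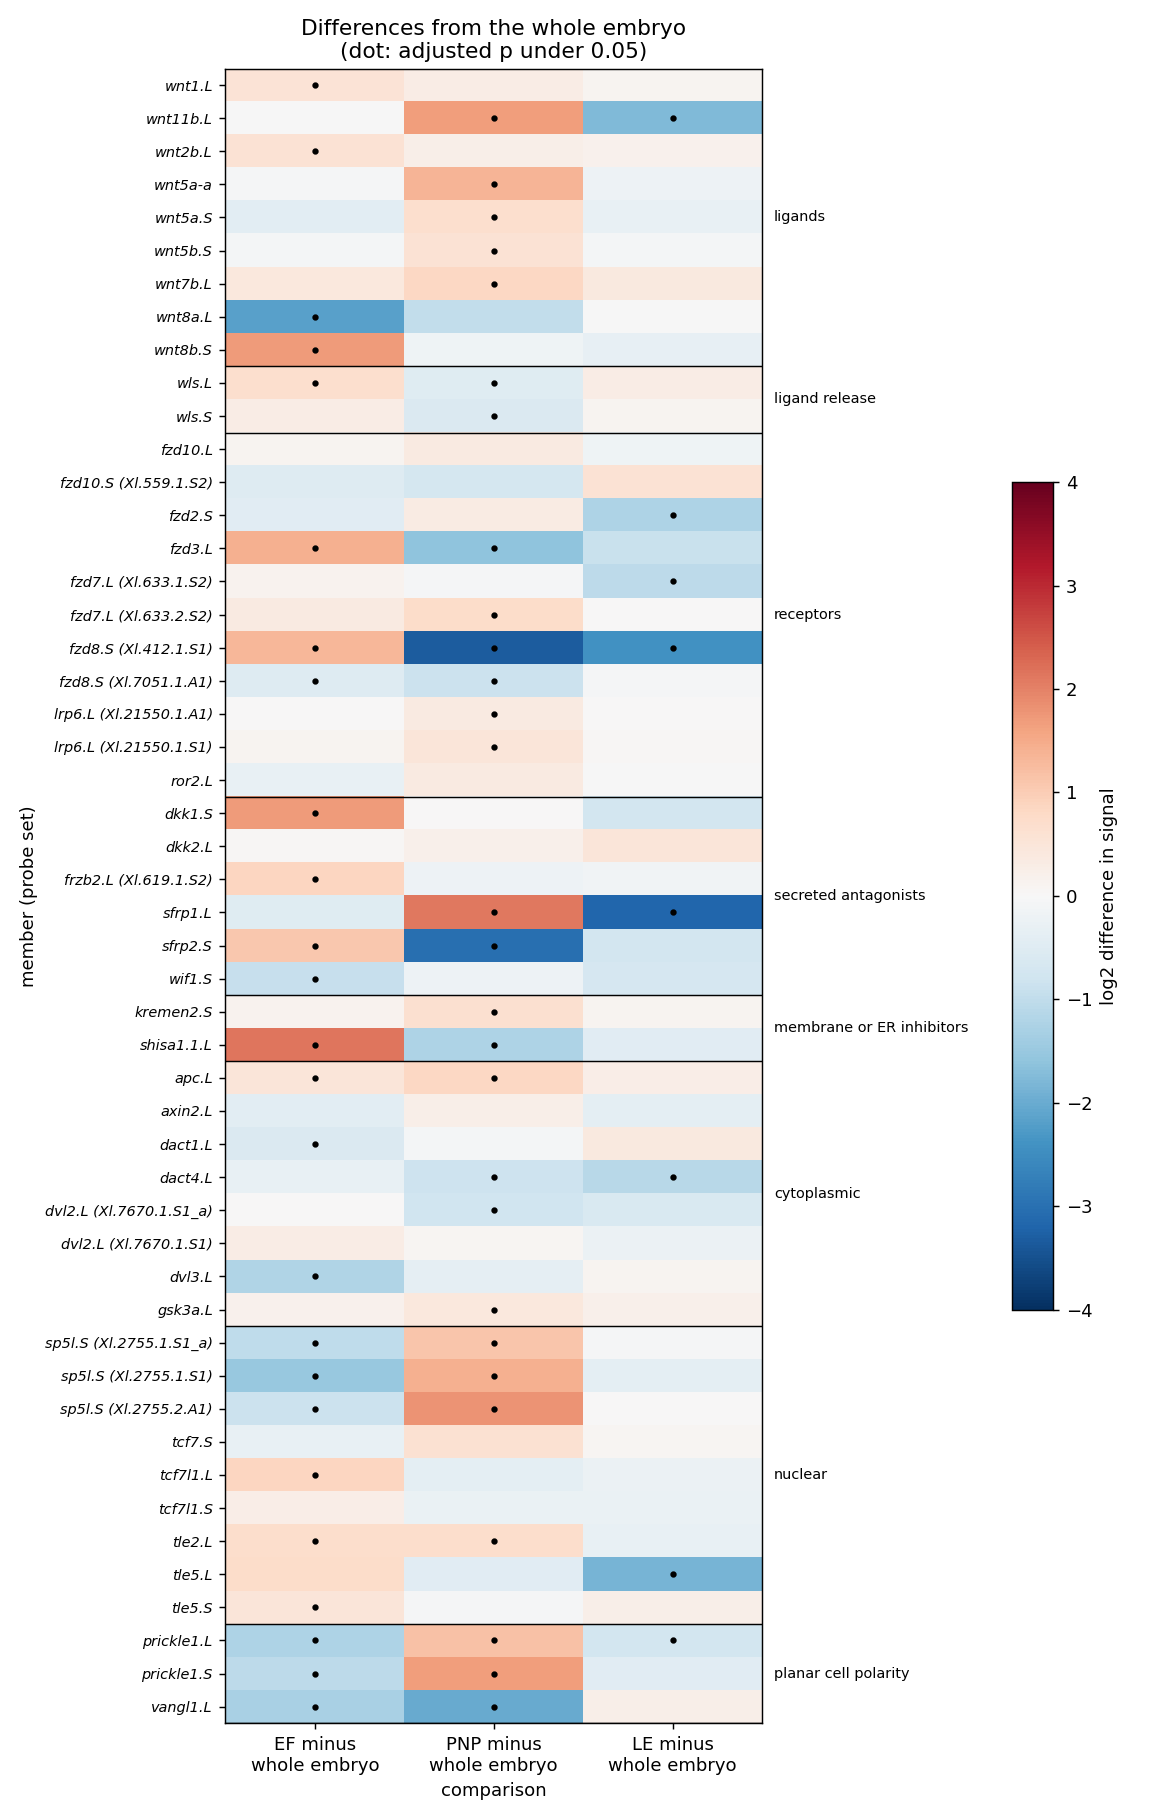
Log2 difference from the mean of the 3 whole-embryo arrays (colour) for the 50 member probe sets called in any of the 6 comparisons, by role, in EF, PNP and LE. A dot marks an adjusted p under 0.05 against whole embryos; the LE column has 8 dots, all on lower values, and probe set names are given where a gene has several.

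The unpaired t-test takes the spread from the 6 arrays of a comparison alone. It kept 70 of the 137 calls of the genes selected for values per array. This set leaves out the called members *apc.L* and *gsk3a.L*. It also leaves out *wnt1.L*, *lrp6.L* and *frzb2.L*, which were picked out later. Under the t-test all calls of *apc.L*, *gsk3a.L*, *wnt1.L* and *frzb2.L* were lost. Those of one *lrp6.L* probe set were kept and that of the other was lost. Within the selected set the t-test differed between genes. It kept all 6 calls of the first *fzd8.S* probe set, all 3 of *wnt8b.S*, *wls.S* and *tcf7l1.L*, and 5 of 5 on 1 probe set of *sp5l.S*. It kept 1 of 5 for *sfrp1.L*, 1 of 4 for *tle5.L* and none for *wnt8a.L*, *wnt5a-a* and *dkk1.S*.

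Among the 16 probe sets to Wnt ligands, 1 (*wnt8b*) was higher in EF than in PNP and 4 (*wnt11b*, *wnt5b* and both probe sets of *wnt5a*) were higher in PNP. Against whole embryos, 3 ligands (*wnt8b*, *wnt1* and *wnt2b*) were higher in EF and 1 (*wnt8a*) was lower. In PNP 5 probe sets were higher and none was lower at the adjusted threshold, and in LE 1 (*wnt11b*) was lower. For these counts and those of the other role groups below, the shares over all probe sets are those given above for each comparison.

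*wnt8b.S*, a ligand made in the vertebrate forebrain and midbrain, read 4.86, 4.87 and 4.50 in EF, 2.81, 2.43 and 3.34 in PNP, 2.73, 2.60 and 2.80 in LE, and 2.80, 3.09 and 3.25 in whole embryos. The EF arrays lay above all 9 others. The log2 difference from whole embryos was 1.70 (SE 0.21, a 3.25-fold higher signal, limma adjusted p = 0.000124), and from PNP it was 1.89 (adjusted p = 3.62e-05).

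*wnt8a.L* is the ligand of the ventrolateral mesoderm that posteriorises the frog neural plate. Its signal was 2.67, 4.97 and 3.98 in EF, 4.26, 5.29 and 5.58 in PNP, 6.44, 6.06 and 5.53 in LE, and 6.0, 5.88 and 6.23 in whole embryos. All 3 EF arrays lay below every LE and whole-embryo array, but they spread widely among themselves and overlapped PNP. EF was lower than whole embryos by a log2 difference of -2.16 (SE 0.48, adjusted p = 0.00763) and lower than LE by -2.13 (adjusted p = 0.00608). Without EF replicate 1, the lowest array, these differences were -1.56 and -1.53, still past the threshold.

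*wnt11b.L*, a ligand of the polarity branch that drives convergent extension in the frog, was highest in PNP and lowest in LE. It read 5.09, 4.88 and 5.03 in EF, 6.43, 6.78 and 6.86 in PNP, 3.49, 3.04 and 3.26 in LE, and 4.99, 4.44 and 5.64 in whole embryos. PNP lay above and LE below all other arrays, and EF fell within the range of whole embryos. The difference PNP minus LE was 3.43 (SE 0.25, 10.8-fold, adjusted p = 4.99e-07), made of 1.67 above whole embryos in PNP (adjusted p = 0.0004) and -1.76 below whole embryos in LE (adjusted p = 0.000994).

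*wnt5a*, the ligand of the Ror receptors, had a probe set to the S copy and a second one under the older symbol *wnt5a-a*. The *wnt5a-a* probe set read 2.60, 2.75 and 2.42 in EF, 3.36, 4.70 and 3.91 in PNP, 2.54, 2.30 and 2.44 in LE, and 2.84, 2.68 and 2.38 in whole embryos. The *wnt5a.S* probe set read 2.83, 2.95 and 2.54 in EF, 3.70, 3.83 and 4.08 in PNP, 3.09, 2.84 and 2.81 in LE, and 3.33, 3.34 and 2.92 in whole embryos. On both, every PNP array was above every other array. PNP minus whole embryo was 1.36 (SE 0.26, adjusted p = 0.00286) on the first and 0.67 (SE 0.17, adjusted p = 0.0117) on the second, where the call was lost without whole-embryo replicate 3 (0.53). PNP minus EF, called on both, was 1.40 and 1.09 in size.

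The other ligands called in PNP or EF were dim. *wnt1.L*, picked out after its values were seen, was called in EF (0.54 over whole embryos) only while EF replicates 2 and 3 and all whole-embryo arrays were kept (0.46 to 0.58 without one of them). *wnt7b.L* read 2.46, 2.45 and 3.13 in PNP against 1.90, 1.76 and 1.91 in whole embryos, where no array was above background (at least 1.42-fold, adjusted p = 0.0222), and the call was lost without PNP replicate 3 (0.59) or whole-embryo replicate 2 (0.77). *wnt2b.L* read 2.85, 2.81 and 2.63 in EF against 1.99, 2.32 and 2.23 in whole embryos (difference 0.58, adjusted p = 0.0259), and its call was lost without EF replicate 1, EF replicate 2 or whole-embryo replicate 1 (0.49 to 0.56). *wnt5b.S*, at 3.26, 3.07 and 2.38 in PNP and 2.13, 2.32 and 2.26 in EF, was called higher in PNP than in whole embryos (0.58), EF and LE (2.32, 2.24 and 2.2). Its PNP values overlapped those of whole embryos (2.41, 2.26 and 2.32), and that call was lost without any 1 array except PNP replicate 3 (0.40 to 0.62). The call against EF (-0.67, EF minus PNP) was lost without EF replicates 1 or 3 or PNP replicates 1 or 2 (-0.68 to -0.49), and that against LE (0.65) without PNP replicates 1 or 2 or LE replicates 2 or 3 (0.47 to 0.65).

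The classical posterior ligand *wnt3a* gave no measurable signal in PNP. *wnt3a.S* read 1.89, 1.95 and 2.26 in EF, 2.07, 1.98 and 2.07 in PNP, 2.13, 2.40 and 2.12 in LE, and 2.13, 1.95 and 2.13 in whole embryos, with 1 LE array of the 12 above background. *wnt4.L* was above background on 2 arrays (PNP 1.96, 2.52 and 2.05, whole embryos 1.85, 2.30 and 1.90, EF 1.99, 1.99 and 1.87, LE 1.81, 1.95 and 2.25). *wnt11.S* read 2.61, 2.16 and 2.42 in EF, 1.98, 2.14 and 2.39 in PNP, 2.31, 2.35 and 2.13 in LE, and 2.23, 2.79 and 2.57 in whole embryos. None of these 3 was called, and at this signal a difference was not detectable rather than absent.

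Of the genes for ligand release, *wls* differed between EF and PNP. Wntless (*wls*) carries lipid-modified Wnt proteins to the cell surface, and both of its copies were lower in PNP. *wls.L* read 5.48, 5.18 and 5.67 in EF, 4.28, 4.25 and 4.34 in PNP, 4.97, 5.01 and 5.20 in LE, and 5.06, 4.63 and 4.62 in whole embryos. *wls.S* read 7.83, 7.59 and 7.38 in EF, 6.80, 6.64 and 6.78 in PNP, 7.38, 7.28 and 7.57 in LE, and 7.38, 7.21 and 7.34 in whole embryos. The PNP arrays were the lowest on both probe sets. EF minus PNP was 1.16 (SE 0.16, adjusted p = 0.000184) for the L copy and 0.86 (SE 0.14, adjusted p = 0.000669) for the S copy, and PNP was also lower than LE on both (-0.77 and -0.66). The acyltransferase gene *porcn*, whose product attaches the lipid, was not called.

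**Figure D2:**
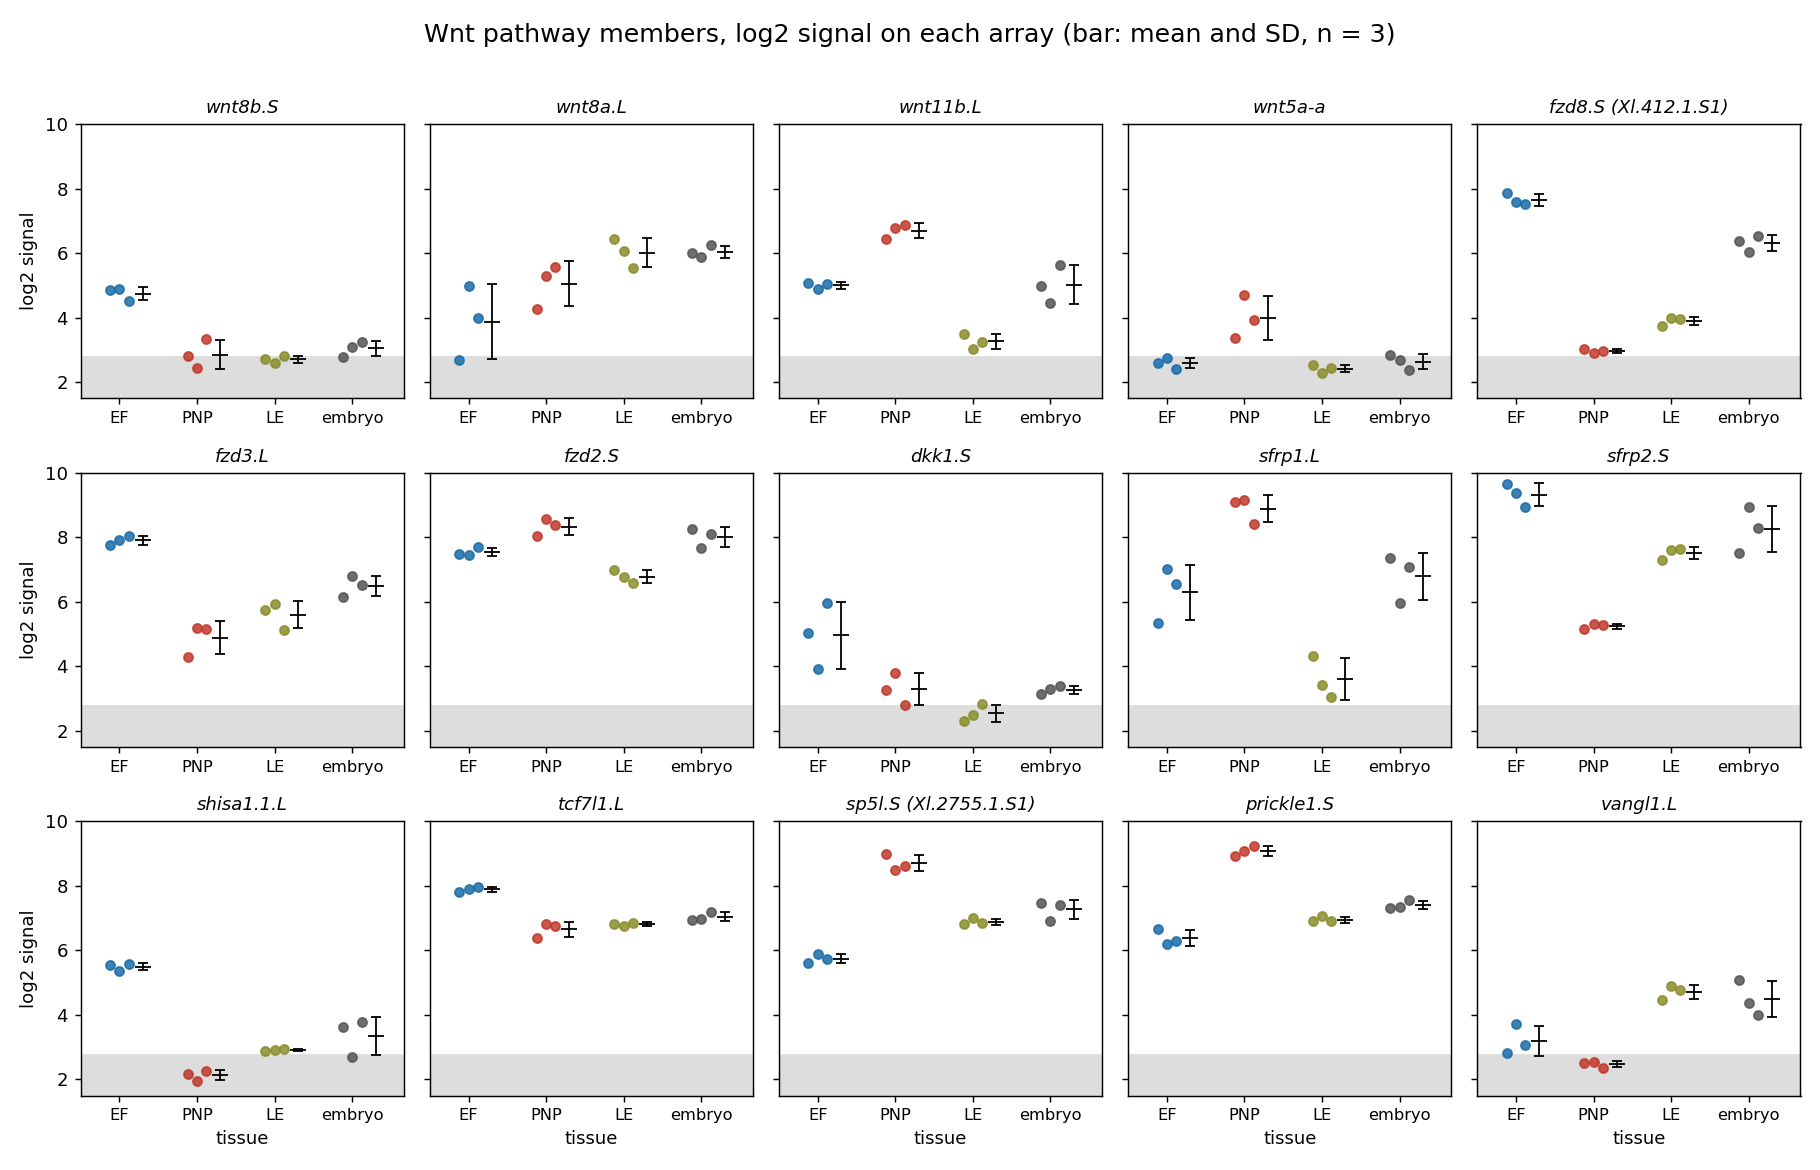
Log2 signal of 15 members on each of the 12 arrays (points, left to right replicates 1 to 3 of each tissue), with mean and SD beside them; the grey band ends at the highest background limit of any array (2.77). *fzd8.S*, *shisa1.1.L*, *sfrp2.S* and *fzd3.L* were highest in EF, and *wnt11b.L*, *sfrp1.L*, *sp5l.S* and *prickle1.S* in PNP.

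Of the 20 probe sets to receptors and coreceptors, 2 exceeded whole embryos in EF and 1 lay below them, 3 exceeded and 3 lay below them in PNP, and 3 were lower in LE. Among the receptors *fzd8* differed most widely. On the first *fzd8.S* probe set the signal was 7.86, 7.57 and 7.51 in EF, 3.03, 2.90 and 2.97 in PNP, 3.74, 3.98 and 3.97 in LE, and 6.37, 6.03 and 6.52 in whole embryos. The 4 tissues formed 4 separate levels. EF exceeded PNP by 4.68 (SE 0.15, 25.7-fold, adjusted p = 1.57e-09) and LE by 3.75 (13.5-fold, adjusted p = 1.48e-08). Against whole embryos the difference was 1.34 in EF (adjusted p = 5.51e-05), -3.34 in PNP (adjusted p = 1.25e-08) and -2.41 in LE (adjusted p = 1.93e-06).

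A second probe set annotated to *fzd8.S* did not follow this pattern. It read 5.99, 5.82 and 5.81 in EF, 5.93, 5.19 and 5.50 in PNP, 6.37, 6.43 and 6.23 in LE, and 6.55, 6.34 and 6.31 in whole embryos. Here EF and PNP overlapped, and both lay below every whole-embryo array (-0.52, adjusted p = 0.0474, and -0.86, adjusted p = 0.00306). The call in EF was lost without any 1 of 10 of the 12 arrays, all but PNP replicate 1 and PNP replicate 2 (-0.58 to -0.45). Within each array the first probe set minus the second was 1.87, 1.75 and 1.70 in EF and -0.17, -0.31 and 0.21 in whole embryos, a shift of 1.86 (exact permutation test, two-sided p = 0.10, the smallest p that 3 arrays against 3 allow; pair chosen after the values were seen). A probe set to the L copy, *fzd8.L*, passed background on 5 of the 12 arrays (2.38, 2.35 and 2.63 in EF, 2.15 to 2.39 in the other tissues) and was not called.

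*fzd3.L* encodes a Frizzled that takes part in frog eye formation. It read 7.75, 7.90 and 8.05 in EF, 4.29, 5.19 and 5.16 in PNP, 5.73, 5.92 and 5.12 in LE, and 6.15, 6.79 and 6.51 in whole embryos. EF was above and PNP below every whole-embryo array, and PNP overlapped LE. The difference EF minus PNP was 3.02 (SE 0.27, 8.13-fold, adjusted p = 4.66e-06), with 1.41 in EF (adjusted p = 0.00258) and -1.61 in PNP (adjusted p = 0.0009) against whole embryos.

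*fzd2.S* and *fzd7.L*, receptors used in both branches in the frog gastrula, were low in LE. *fzd2.S* read 7.47, 7.45 and 7.69 in EF, 8.04, 8.55 and 8.37 in PNP, 6.97, 6.76 and 6.57 in LE, and 8.27, 7.65 and 8.08 in whole embryos. LE lay below all 9 other arrays and PNP above EF (PNP minus LE 1.56, SE 0.19, adjusted p = 4.63e-05; EF minus PNP -0.79, adjusted p = 0.00812; LE minus whole embryo -1.23, adjusted p = 0.00154). *fzd7.L* had 5 probe sets, and 2 of them were bright. The first read 7.97, 8.21 and 7.99 in EF, 7.91, 7.90 and 7.86 in PNP, 7.15, 6.70 and 6.74 in LE, and 7.97, 7.74 and 8.05 in whole embryos, with LE lower than whole embryos by -1.06 (SE 0.15, adjusted p = 0.000861). The other read 7.92, 8.19 and 8.02 in EF, 8.28, 8.67 and 8.31 in PNP, 7.77, 7.66 and 7.66 in LE, and 7.83, 7.29 and 7.96 in whole embryos. There the PNP arrays were above all others (0.73 over whole embryos, SE 0.18, adjusted p = 0.0109), and LE overlapped whole embryos. Both probe sets had PNP above LE (1.03 and 0.72). The other 3 were called in no comparison.

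*fzd10* gave opposite calls for its copies. On the brighter *fzd10.S* probe set the signal was 5.23, 5.30 and 5.40 in EF, 5.55, 4.97 and 4.80 in PNP, 6.64, 6.35 and 6.25 in LE, and 6.25, 5.23 and 5.99 in whole embryos. LE was above every EF and PNP array (EF minus LE -1.10, SE 0.25, adjusted p = 0.0062; PNP minus LE -1.31, adjusted p = 0.0019). *fzd10.L* passed background on 9 of the 12 arrays and read 2.59, 2.81 and 2.40 in EF, 2.99, 3.06 and 2.54 in PNP, 2.40, 2.38 and 2.19 in LE, and 2.71, 2.34 and 2.46 in whole embryos. Its PNP minus LE difference was 0.54 (SE 0.17, adjusted p = 0.0317), a call that was lost without PNP replicate 1, PNP replicate 2 or any of the LE arrays (0.44 to 0.58). The other *fzd10.S* probe set was dim and not called.

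*fzd5*, which is needed for the neural fate of the frog retina, was dim and was not called in any comparison. *fzd5.S* read 2.64, 2.52 and 2.53 in EF, 2.16, 2.48 and 2.43 in PNP, 2.38, 2.37 and 2.42 in LE, and 2.43, 2.19 and 2.26 in whole embryos. It passed background on 8 of the 12 arrays, none of them PNP. *fzd4.S* passed on 3 of the 12 (2.03, 2.07 and 2.09 in EF, 2.26, 2.13 and 2.25 in PNP, 2.33, 2.26 and 2.74 in LE, 1.96, 2.19 and 2.09 in whole embryos) and was not called. The coreceptor gene *lrp6.L*, picked out after its values were seen, read 2.53, 2.67 and 2.62 in PNP and 2.15, 2.07 and 2.11 in whole embryos on one probe set (at least 1.35-fold, adjusted p = 0.006). Its other probe set was also called (0.36), a call that most single arrays removed (10 of the 12, 0.32 to 0.40). *ror2.L*, a receptor for Wnt5a, read 6.51, 7.46 and 6.58 in EF, 7.32, 7.55 and 7.67 in PNP, 7.06, 7.3 and 7.05 in LE, and 7.22, 7.01 and 7.26 in whole embryos. Its EF and PNP arrays overlapped, and the difference of -0.66 (adjusted p = 0.0465) was lost when any array except EF replicate 2 was left out (-0.76 to -0.49).

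Secreted antagonists were the role group with the widest spread between PNP and LE, set by *sfrp1.L* (PNP minus LE 5.28) and *sfrp2.S* (-2.27). The other 9 of the 11 probe sets were not called in that comparison, and the median difference of the group was -0.05. Against whole embryos, 3 of the 11 antagonist probe sets were higher in EF and 1 was lower. In PNP 1 was higher and 1 lower, and in LE 1 was lower. The sFRP proteins bind Wnt ligands through a Frizzled-like domain. Probe sets to *sfrp1* and *sfrp2* were high in different pieces, *sfrp1* in PNP and *sfrp2* in EF.

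*sfrp1.L* read 5.35, 7.01 and 6.53 in EF, 9.08, 9.16 and 8.40 in PNP, 4.32, 3.43 and 3.05 in LE, and 7.34, 5.95 and 7.07 in whole embryos. PNP lay above and LE below all other arrays, and EF overlapped whole embryos. The difference PNP minus LE was 5.28 (SE 0.46, 38.9-fold, adjusted p = 2.82e-06). Against whole embryos the values were 2.1 in PNP (adjusted p = 0.00635) and -3.19 in LE (adjusted p = 0.00121).

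*sfrp2.S* read 9.64, 9.37 and 8.92 in EF, 5.15, 5.29 and 5.27 in PNP, 7.29, 7.60 and 7.64 in LE, and 7.51, 8.93 and 8.30 in whole embryos. PNP was below every other array and EF above every LE array, while EF replicate 3 fell just under the highest whole-embryo array. The difference EF minus PNP was 4.07 (SE 0.29, 16.8-fold, adjusted p = 8.22e-07) and PNP minus whole embryo was -3.01 (8.04-fold lower, adjusted p = 9.72e-06). EF exceeded whole embryos by 1.06 (adjusted p = 0.0221), a call that was lost without EF replicate 1 (0.90), EF replicate 2 (1.03) or whole-embryo replicate 1 (0.70).

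*dkk1.S* encodes a head inducer that binds the LRP coreceptors. It read 5.02, 3.90 and 5.96 in EF, 3.28, 3.79 and 2.79 in PNP, 2.30, 2.48 and 2.83 in LE, and 3.13, 3.29 and 3.39 in whole embryos. Every EF array was above every other array, but the EF arrays spread by more than those of any other tissue. EF minus whole embryo was 1.69 (SE 0.40, 3.23-fold, adjusted p = 0.0112), EF minus PNP 1.67 (adjusted p = 0.00928) and EF minus LE 2.42 (adjusted p = 0.000761). The gene is on a list that the study drew up with enrichment in these EF samples as one criterion, so its direction here is not independent evidence.

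Crescent (*frzb2*), a Frizzled-related protein of the anterior mesendoderm, was called on 1 of its 2 probe sets. It read 3.36, 2.29 and 3.50 in EF, 1.91, 1.86 and 2.16 in PNP, 2.08, 1.96 and 2.04 in LE, and 2.19, 2.17 and 2.16 in whole embryos. EF was above all other arrays, and 2 of the 3 EF arrays passed background. EF minus whole embryo was 0.87 (SE 0.25, limma adjusted p = 0.0266), and the call was lost without EF replicates 1 or 3 or any whole-embryo array (0.65 to 0.88). EF was also called higher than PNP (1.07) and LE (1.02), where no array passed background. No single array removed these calls. The unpaired t-test kept none of the calls of this probe set. The gene was picked out after its values were seen. *wif1.S*, which encodes a ligand-binding inhibitor, was lower in EF. It read 2.15, 2.22 and 2.32 in EF, 2.71, 3.13 and 3.03 in PNP, 2.41, 2.70 and 2.40 in LE, and 2.83, 3.85 and 2.82 in whole embryos. No EF array was above background (at least 1.66-fold lower than whole embryos, adjusted p = 0.016). The difference from whole embryos was -0.94. It was -0.60 without whole-embryo replicate 2, and the call was lost without EF replicate 1 (-0.90).

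For *frzb*, an antagonist first found in the frog organizer, the whole-embryo arrays spread widely. *frzb.L* read 3.10, 2.51 and 4.08 in EF, 2.11, 2.58 and 2.23 in PNP, 1.98, 1.92 and 2.25 in LE, and 4.50, 2.56 and 3.43 in whole embryos. *frzb.S* read 3.30, 3.48 and 3.85 in EF, 4.15, 3.11 and 3.20 in PNP, 4.44, 3.97 and 3.39 in LE, and 5.01, 3.60 and 4.72 in whole embryos. Whole-embryo replicate 2 was the lowest whole-embryo array on both, and no comparison was called. *sfrp5.L* passed background on 3 of the 12 arrays and was not called (2.65, 2.2 and 2.40 in EF, 2.28, 2.06 and 2.1 in PNP, 2.15, 2.18 and 2.23 in LE, 2.03, 2.14 and 1.88 in whole embryos).

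Inhibitors at the membrane were represented by 3 probe sets. *shisa1.1.L* belongs to the Shisa family, whose founding frog member holds Frizzled receptors in the endoplasmic reticulum. It read 5.54, 5.36 and 5.59 in EF, 2.15, 1.96 and 2.27 in PNP, 2.88, 2.90 and 2.95 in LE, and 3.62, 2.68 and 3.76 in whole embryos. EF lay above all other arrays, and no PNP array passed background. EF was higher than whole embryos by 2.14 (SE 0.23, 4.41-fold, adjusted p = 3.78e-05), at least 7.94-fold higher than PNP (adjusted p = 5.52e-07) and 6.0-fold higher than LE (adjusted p = 4.79e-06). PNP was at least 1.80-fold lower than whole embryos (adjusted p = 0.00213).

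*kremen2.S* encodes a receptor for Dkk proteins. It read 2.78, 2.84 and 2.64 in EF, 3.43, 3.22 and 3.15 in PNP, 2.78, 2.69 and 2.75 in LE, and 2.95, 2.60 and 2.33 in whole embryos. All PNP arrays lay above the others, by 0.64 over whole embryos (SE 0.15, adjusted p = 0.0107). *kremen1.S* was dim and not called.

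**Figure D3:**
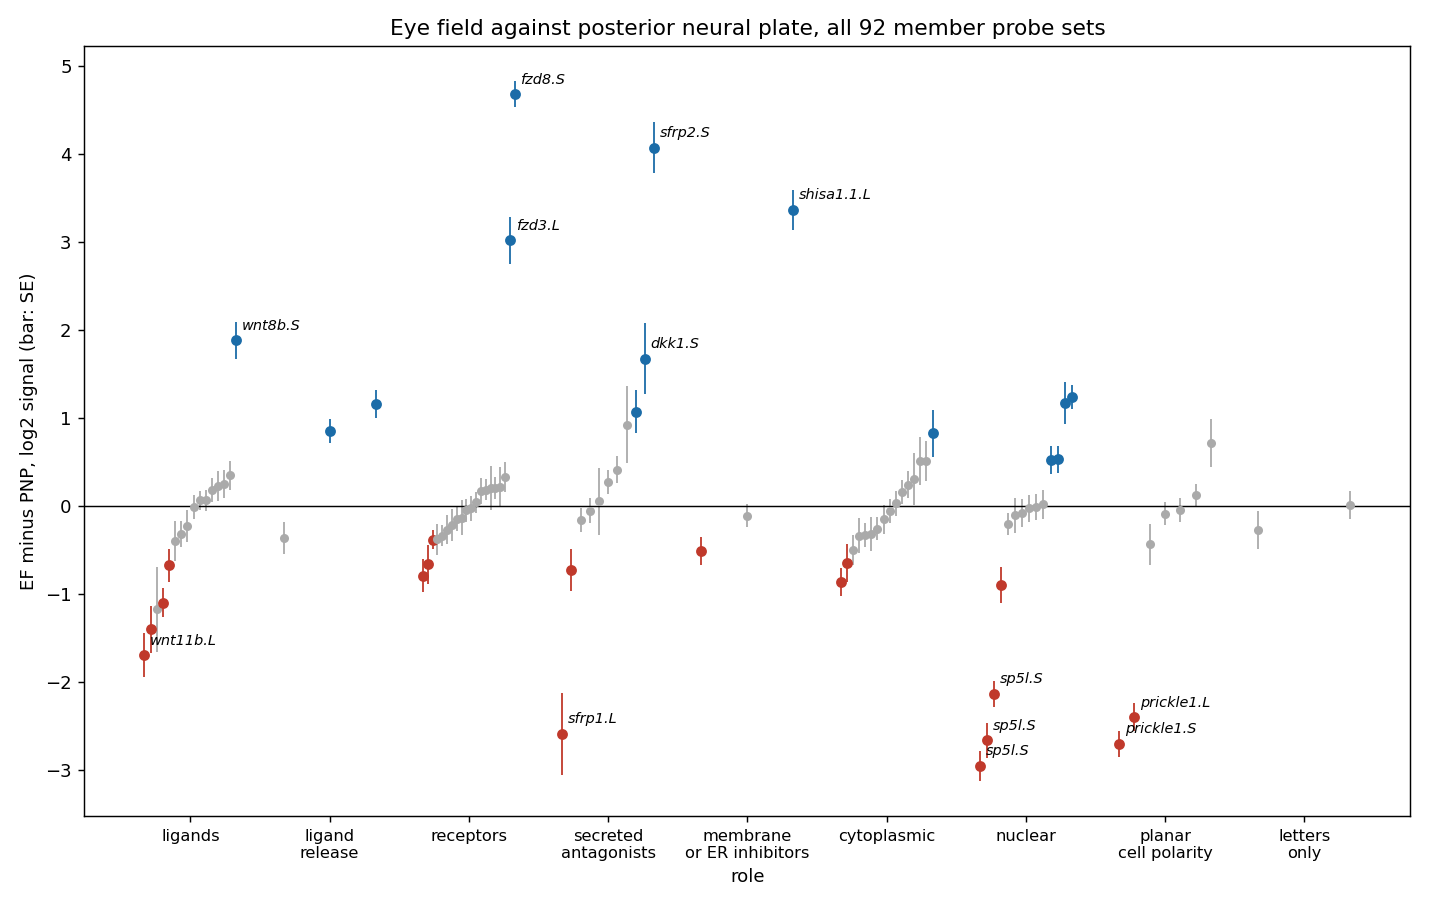
EF minus PNP in log2 signal, with the standard error, for all 92 member probe sets by role. Blue points were called higher in EF (14), red points lower in EF (18) and grey points were not called; names are given for called members over 1.5 log2 units. The extremes were 4.68 for *fzd8.S* and -2.95 for *sp5l.S*.

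Of 14 nuclear probe sets, 3 exceeded whole embryos in EF and 3 lay below them, 4 were higher in PNP, and 1 was lower in LE. All 3 that were lower in EF measured *sp5l*, which encodes a zinc finger protein of the Sp family whose mouse and fish relatives are direct targets of canonical signalling. Its widest-ranging probe set read 5.60, 5.89 and 5.74 in EF, 8.98, 8.50 and 8.61 in PNP, 6.83, 6.99 and 6.83 in LE, and 7.48, 6.92 and 7.40 in whole embryos. EF was below and PNP above all other arrays, with LE between them. The difference EF minus PNP was -2.95 (SE 0.17, 7.73-fold, adjusted p = 1.46e-07), with -1.52 in EF (adjusted p = 6.1e-05) and 1.43 in PNP (adjusted p = 7.21e-05) against whole embryos. The other probe sets gave EF minus PNP differences of -2.66 and -2.13 with the same order of EF and PNP. Because all 3 measure *sp5l.S*, they count as 1 gene. *sp5.S* itself was dim (2.41, 2.23 and 2.34 in EF, 2.15, 2.26 and 2.50 in PNP, 2.17, 2.51 and 2.36 in LE, 2.01, 1.54 and 2.12 in whole embryos).

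*tcf7l1* encodes the TCF that mainly represses and that mouse and fish need to form the forebrain. *tcf7l1.L* read 7.82, 7.89 and 7.96 in EF, 6.38, 6.82 and 6.75 in PNP, 6.82, 6.74 and 6.85 in LE, and 6.95, 6.96 and 7.20 in whole embryos. EF was above all other arrays. EF minus whole embryo was 0.85 (SE 0.14, adjusted p = 0.000845) and EF minus PNP 1.24 (adjusted p = 3.32e-05). *tcf7l1.S* was dim, with 2.48, 2.59 and 2.84 in EF and no PNP or LE array above background. In contrast, *tcf7.S*, a TCF that mostly activates, read 4.91, 4.79 and 4.81 in EF and 6.09, 5.74 and 5.35 in PNP, so that EF was lower than PNP by -0.89 (SE 0.20, adjusted p = 0.00687). Its LE values (5.25, 4.84 and 5.57) overlapped both EF and PNP. The whole-embryo values (4.99, 5.13 and 5.27) lay between EF and PNP without overlapping either. No comparison with LE or whole embryos was called. A probe set shared by both copies of *lef1*, left out by the member rule, was also lower in EF than in PNP (-1.91, limma adjusted p = 2.83e-05). Against whole embryos it differed by 1.02 in PNP (adjusted p = 0.00389) and -0.89 in EF (adjusted p = 0.00946).

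The corepressor gene *tle2.L* was higher in EF and PNP than in LE and whole embryos. It read 6.10, 5.88 and 6.22 in EF, 6.30, 5.82 and 6.11 in PNP, 4.94, 5.13 and 5.18 in LE, and 5.39, 5.41 and 5.31 in whole embryos. EF and PNP overlapped each other and lay above every LE and whole-embryo array, by 0.70 (SE 0.15, adjusted p = 0.00519) and 0.71 (adjusted p = 0.00414) over whole embryos. *tle4.S* passed background on 1 of the 12 arrays (2.25, 1.96 and 2.23 in EF, 1.97, 2.14 and 2.40 in PNP, 1.98, 2.04 and 2.30 in LE, 2.18, 1.90 and 2.17 in whole embryos).

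*tle5* encodes a short Groucho-related protein, and its copies differed in LE. *tle5.L* read 9.64, 9.43 and 8.86 in EF, 8.02, 8.03 and 8.35 in PNP, 6.91, 7.11 and 6.20 in LE, and 8.65, 8.46 and 8.65 in whole embryos. *tle5.S* read 8.12, 8.05 and 7.93 in EF, 7.21, 7.79 and 7.50 in PNP, 7.86, 7.82 and 7.69 in LE, and 7.38, 7.59 and 7.71 in whole embryos. LE was the lowest tissue for the L copy, while for the S copy it lay within or above the range of whole embryos. LE minus whole embryo was -1.85 for the L copy (SE 0.24, adjusted p = 0.000542) and 0.23 for the S copy, which was not called. Within each array the L minus S difference was -0.95, -0.72 and -1.50 in LE and 1.27, 0.86 and 0.94 in whole embryos. This shift of -2.08 separated the arrays fully (exact permutation test, two-sided p = 0.10, the smallest possible; pair chosen after the values were seen).

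**Figure D4:**
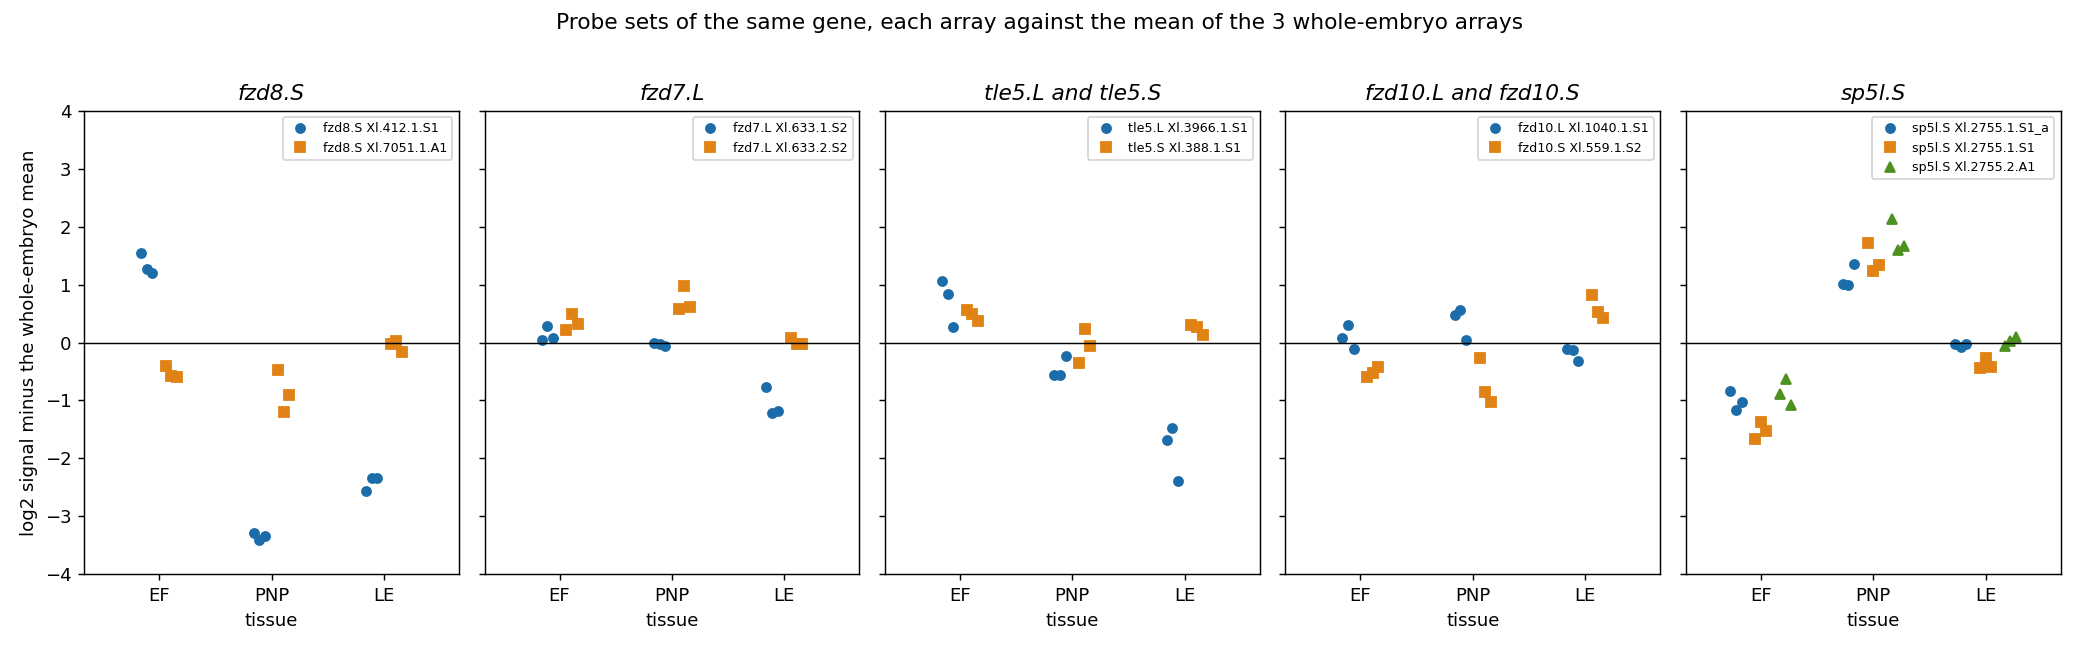
Log2 signal of each EF, PNP and LE array minus the mean of the 3 whole-embryo arrays, for probe sets of the same gene or of its L and S copies. The 3 *sp5l.S* probe sets followed one another, whereas the *fzd8.S* pair separated in all 3 tissues and the *tle5* copies in LE.

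Of 16 probe sets to cytoplasmic members 1 exceeded whole embryos in EF and 2 lay below them, 2 exceeded and 2 lay below them in PNP, and 1 was lower in LE. The higher ones were *apc.L* in EF (0.49) and PNP (0.81) and *gsk3a.L* in PNP (0.44). The call of *apc.L* in EF and that of *gsk3a.L* were each lost without any 1 of 5 arrays. The bright probe sets of β-catenin (*ctnnb1.L* at 9.48 to 10.03 and *ctnnb1.S* at 8.80 to 9.43 over the 12 arrays) were not called in any comparison. *dvl3.L*, one of the Dishevelled genes, read 3.80, 3.98 and 3.78 in EF, 5.09, 4.55 and 4.50 in PNP, 5.27, 5.21 and 5.05 in LE, and 4.99, 5.23 and 4.99 in whole embryos. EF lay below all other arrays, by -1.21 from whole embryos (SE 0.16, 2.32-fold lower, adjusted p = 0.000208). Of the 3 probe sets to *dvl2.L*, a second Dishevelled gene, 1 was called higher in EF than in PNP (0.83, adjusted p = 0.0384), and its call was lost without EF replicate 1, EF replicate 3, PNP replicate 2 or PNP replicate 3 (0.59 to 0.85).

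*axin2* is both a scaffold of the destruction complex and a common read-out of canonical signalling. *axin2.L* read 4.11, 4.27 and 4.70 in EF, 5.15, 5.14 and 4.73 in PNP, 4.31, 4.47 and 4.34 in LE, and 5.15, 4.32 and 4.85 in whole embryos. PNP lay above every EF and LE array, but EF replicate 3 and PNP replicate 3 were nearly equal. EF minus PNP was -0.65 (SE 0.22, adjusted p = 0.0472), and this call was lost without EF replicates 1 or 2, PNP replicates 1 or 2, any LE array or whole-embryo replicate 3 (-0.65 to -0.52). *axin2.S* read 6.51, 6.18 and 6.80 in EF, 7.04, 6.64 and 6.77 in PNP, 6.49, 6.34 and 6.17 in LE, and 5.96, 6.34 and 6.60 in whole embryos. Its PNP arrays lay above those of LE and whole embryos, and no comparison was called.

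Dact proteins bind Dishevelled. *dact1.L* read 7.70, 7.75 and 7.61 in EF, 8.01, 8.28 and 8.28 in PNP, 8.48, 8.58 and 8.98 in LE, and 7.97, 8.48 and 8.38 in whole embryos. EF was the lowest tissue and LE the highest (EF minus LE -0.99, SE 0.17, adjusted p = 0.000917). *dact4.L* read 5.44, 5.24 and 5.51 in EF, 5.09, 4.24 and 5.32 in PNP, 4.13, 4.96 and 4.72 in LE, and 5.75, 5.88 and 5.47 in whole embryos. LE was below whole embryos by -1.10 (SE 0.27, adjusted p = 0.026), and the call was lost without LE replicate 1, LE replicate 3, whole-embryo replicate 1 or whole-embryo replicate 2 (-1.16 to -0.86). *dact1.S* was at background on all arrays (2.21, 2.05 and 2.18 in EF, 2.25, 2.09 and 2.01 in PNP, 1.79, 1.99 and 2.25 in LE, 2.18, 1.98 and 1.94 in whole embryos).

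Among the planar cell polarity genes, *prickle1* was the one that differed between EF and PNP. Of the 7 probe sets its 2 were called in that comparison, both lower in EF, and 5 were not. Against whole embryos, 3 were lower in EF, while in PNP 2 were higher and 1 lower. Both copies of *prickle1*, a cytoplasmic polarity protein, were high in PNP and low in EF. *prickle1.S* read 6.65, 6.20 and 6.27 in EF, 8.93, 9.07 and 9.23 in PNP, 6.89, 7.05 and 6.90 in LE, and 7.32, 7.34 and 7.55 in whole embryos. *prickle1.L* read 5.71, 5.47 and 5.57 in EF, 7.79, 7.90 and 8.26 in PNP, 6.07, 5.88 and 6.22 in LE, and 7.01, 6.62 and 6.79 in whole embryos. On both, the 4 tissues kept the order PNP, whole embryos, LE and EF with no overlap. EF minus PNP was -2.70 (SE 0.15, 6.51-fold, adjusted p = 8.12e-08) for the S copy and -2.40 (SE 0.16, 5.28-fold, adjusted p = 4.16e-07) for the L copy. The calls between LE and EF were lost without 2 of the arrays for *prickle1.S* (EF replicate 2 and LE replicate 2, -0.52 to -0.49) and without 7 for *prickle1.L* (all EF arrays, PNP replicate 2, LE replicates 1 and 3, and whole-embryo replicate 3, -0.54 to -0.39).

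The membrane protein gene *vangl1* was lower than whole embryos in both EF and PNP. *vangl1.L* read 2.82, 3.70 and 3.06 in EF, 2.52, 2.55 and 2.35 in PNP, 4.47, 4.90 and 4.78 in LE, and 5.09, 4.38 and 3.98 in whole embryos. EF and PNP lay below every LE and whole-embryo array. The epidermal and the endoderm marker sums were also lower in EF and PNP than in LE and whole embryos. A link to these tissues was not tested. The differences from whole embryos were -1.29 (EF, SE 0.27, limma adjusted p = 0.00532) and -2.01 (PNP, adjusted p = 0.000183). *vangl2.S*, the copy of its paralogue that was well measured, read 6.39, 7.03 and 6.84 in EF, 7.49, 7.29 and 6.78 in PNP, 7.12, 7.07 and 7.55 in LE, and 7.03, 6.92 and 7.49 in whole embryos. Its EF arrays lay just below those of LE and the other tissues overlapped. *vangl2.L* (2.28, 2.63 and 2.48 in EF, 2.69, 2.36 and 2.48 in PNP, 2.31, 2.19 and 2.37 in LE, 2.11, 2.17 and 2.34 in whole embryos) passed background on 6 of the 12 arrays, and of the 2 *celsr2.L* probe sets one passed on 1 array and the other on none. None of the *vangl2* and *celsr2* probe sets was called.

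Genes of the pathway outside the symbol rule were counted from a fixed list. Of 63 probe sets to other machinery (28 genes measured), EF exceeded PNP on 13 (13.8% of all probe sets) and fell below it on 1 (9.73%). The rest were not called. Against whole embryos 5 were higher in EF (8.83% of all probe sets were) and 2 lower (10.6%). In PNP 5 were higher (10.2%) and 8 lower (12.1%), and in LE 0 were higher (3.23%) and 10 lower (5.40%). Of 38 probe sets to genes known as Wnt targets in frog or mouse (19 genes), EF exceeded PNP on 10 and fell below it on 9. The shares over all probe sets were again 13.8% and 9.73%. The higher ones included the neural crest and neural border genes *pax3.S* (EF minus PNP 4.88, 29.4-fold, adjusted p = 1.19e-08; of 4 *pax3.L* probe sets 1 was called), *msx1.L* (3.94, adjusted p = 1.71e-08) and *snai2.L* (2.27, adjusted p = 1.73e-05). The lower ones included the posterior and mesodermal genes *cdx4.L* (at least 17.5-fold lower in EF, adjusted p = 8.96e-07), *tbxt.S* (EF minus PNP -4.52, adjusted p = 6.25e-08) and *msgn1.L* (at least 41.0-fold lower, adjusted p = 3.68e-09). These examples were picked out after their values were seen. The midbrain target *en2.S* was higher in EF than in whole embryos (1.09, adjusted p = 0.00268). *gbx2.1.S*, a target in frog neural crest induction, was highest in LE (2.27 over whole embryos, adjusted p = 9.8e-06). Several of these targets, *cdx4*, *tbxt* and *msgn1* among them, also served as markers of PNP or of its mesoderm, and *snai2* as a neural crest marker.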

How the data were processed

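Stage 15 *X. laevis* tissues (EF, PNP, LE and whole embryos, 3 arrays each) were measured on Affymetrix *X. laevis* arrays. The authors deposited 1 linear intensity per probe set, and the study's methods name GeneSpring GX and RMA, which corrects background, normalises between arrays and summarises probes. They also name a scaling to whole embryos or control cells, and no source says whether the deposited values carry it. All 12 columns matched a sample, and 0 other sample columns were present. Intensities were log2-transformed. Array intensities carry no read depth, so the number of arrays limits the precision.

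Of 15611 probe sets, 120 controls were left out. Genes were named from the platform annotation, with 9304 tested probe sets having 1 symbol, 195 several and 5992 none; those with several were not used as members (2 in this pathway, *lef1* and *ctnnb1*). Of 92 members, 89 matched the RefSeq gene table and 3 (*wnt2b-b*, *wnt5a-a*) kept the annotation's name. The 5 members with names ending in _a_at share probes with related transcripts. No sequences or promoter motifs were examined.

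All 12 arrays entered 1 limma (3.58.1, R 4.3.3) fit with 4 groups, with Benjamini-Hochberg adjustment over 15491 probe sets and calls under 0.05. The code was tested on simulated data. Where no array of a group was above background, a fold is a lower bound. It compares the brighter group's mean with, per array of the dim group, the higher of the background limit and the probe set's own signal. The marker sums are sums of linear intensities. The genes selected for values per array were the 38 listed genes where a member probe set measured them (31). Up to 3 further genes in each role group with the widest range of group means were added. So were genes with opposite calls in 1 comparison. *lef1* was on the list, but its probe set carries the symbols of both copies and was not a member. The members and lists were chosen with earlier results of these data known. Alternatives were quantile normalization, median centring, a trend in the variance, fits on the 2 groups compared, a filter on dim probe sets, 1 probe set per gene, a 2-fold limit, an unpaired t-test (named in a table legend of the study for pluripotent cells against each tissue), a replicate block and each array left out.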

Additional observations from a re-analysis of the deposited data

Results flagged for a closer look

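In all, 10 probe sets moved in opposite directions from whole embryos in different tissues. Each moved by at least 2-fold in the signal as read, with a tested difference between the tissues (limma, adjusted over all probe sets). The share of all probe sets that moved this way is not given here, so the count has no baseline. It includes 2 probe sets of *sp5l.S* and both copies of *prickle1*. The increase of *sfrp2.S* in EF over whole embryos (1.06) was 0.70 without whole-embryo replicate 1, where its call was lost. For *shisa1.1.L* no PNP array passed background, and the lower bound given above for its decrease in PNP falls under 2-fold. Its differences that involve PNP rest on signal under background. Between EF and PNP the differences were 4.68 for *fzd8.S*, 4.07 for *sfrp2.S*, 3.37 for *shisa1.1.L* and 3.02 for *fzd3.L*, all higher in EF. They were -2.95 and -2.13 for 2 *sp5l.S* probe sets, -2.70 for *prickle1.S* and -2.40 for *prickle1.L*, all higher in PNP. Between EF and LE *fzd8.S* differed by 3.75. Between PNP and LE *sfrp1.L* differed by 5.28 and *wnt11b.L* by 3.43, both higher in PNP. Groups of 3 arrays are too small for a test of single outlying arrays.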

How the results depend on the processing

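The 137 calls followed here are those of the genes selected for values per array. These leave out *apc.L*, *gsk3a.L*, *wnt1.L*, *lrp6.L* and *frzb2.L*. Comparisons of the selected genes that were not called were not followed. None of the 137 calls reversed under any alternative. Of these calls, 67 were lost under the unpaired t-test, which takes the spread from 6 arrays without sharing it across probe sets, 16 in fits on the 2 groups compared, 8 under median centring, 5 under quantile normalization, 5 with a trend in the variance and 2 with dim probe sets left out. Median centring raised the median difference of all probe sets by 0.15 for PNP and 0.11 for LE against whole embryos, and quantile normalization moved it by less than 0.1. With 3 arrays per group and 48 of the members under background on some array, small differences were not detectable.

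Under the t-test the members higher and lower were 5 and 3 in EF and 6 and 3 in PNP against whole embryos, 1 was lower in LE, and the count between EF and PNP was 8 in each direction. With a 2-fold limit they were 6 and 7 in EF and 8 and 5 in PNP against whole embryos, 9 were lower in EF than in PNP, 5 were lower in EF than in LE, and 11 were higher and 3 lower in PNP than in LE. Fits on EF and whole embryos alone gave 9 higher. With 1 probe set per gene 5 were lower in LE than in whole embryos and 13 higher in PNP than in LE. Members higher in LE than in whole embryos were 1 with a trend in the variance and 2 under median centring, which also gave 28 higher in PNP. The cause was not tested.

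Leaving out single arrays gave 8 to 15 members higher in EF than in whole embryos and 0 to 1 higher in LE. Without PNP replicate 3 and LE replicate 3 together, chosen after seeing the data, 13 exceeded PNP in EF and 16 lay below it. With a replicate block 13 exceeded PNP in EF and 18 lay below it, and 8 of the 137 calls were lost. Same-numbered arrays deviated from their group means with correlations from -0.17 to 0.21 over probe sets, and differently numbered arrays with -0.22 to 0.13. Whether arrays with the same number share a day or a female is not stated. With 3 arrays per group and ranges this alike, the correlations cannot decide it. The search for TCF/LEF motifs was not run.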
